A study of Homo sapiens with 26 samples.

Results

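Tight junction scaffolds, their membrane partners and cell polarity proteins form the group of 9 genes described here: TJP1, TJP3, OCLN, MARVELD2, LSR, CGN, F11R, PARD3 and PARD6B. They were taken by gene name from a table of 58735 genes. RNA was sequenced from 16HBE cells, an established line of human bronchial epithelial cells, in 26 libraries. WT cells were 16HBE14o- with wild-type CFTR, the chloride and bicarbonate channel of the airway surface, and CF cells were 16HBEge, a gene-edited derivative with DeltaF508 CFTR, the most common mutation in cystic fibrosis. Cells of both lines were plated on Transwell filters at 250000 per well and kept for 7 days in medium with 5.5 mM (normal) or 17.5 mM (high) glucose, and 2 wells were pooled for each sample. WT cells gave 6 libraries at the normal and 5 at the high glucose level, and CF cells gave 6 at each. A further 3 libraries of WT cells, at the normal glucose level, carry the label not polarized, and the labels do not describe their growth further. Each genotype was represented by 1 line, so the CFTR mutation and any other difference between the lines cannot be told apart. Whether libraries of the same group were grown as separate cultures is not stated, so p-values measure only the spread between these samples, which may be technical.

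Tight junctions seal the space between neighbouring epithelial cells near their apical border. Membrane proteins of the junction bind a cytoplasmic plaque of scaffold proteins, which ties them to the actin cytoskeleton, and polarity complexes position the junction and separate the apical from the basolateral membrane. TJP1 (ZO-1) and TJP3 (ZO-3) are PDZ domain scaffolds, and CGN (cingulin) is a plaque protein that binds TJP1. OCLN (occludin) and MARVELD2 (tricellulin) are membrane proteins of the MARVEL domain family. LSR (angulin-1) recruits MARVELD2 to the corners where several cells meet, and F11R (JAM-A) is an immunoglobulin-like adhesion protein that binds scaffolds and PARD3. PARD3 and PARD6B are a scaffold and an adaptor of the Par complex, which also holds atypical protein kinase C and the GTPase CDC42. In airway epithelium the junctions that these proteins help to build limit the passage of ions and solutes between cells.

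TJP1 and CGN had the most alike profiles across the libraries of any pair among the 9 genes, and TJP3 moved the other way from both in the not polarized cells, so the 250 bases before an annotated start of each scaffold gene are shown (RefSeq, GRCh38.p14, 5′ to 3′ on the gene's strand). Capitals mark matches, on either strand, to the Sp/KLF box GGGCGG and to CACCTG, the E-box that SNAI and ZEB repressors are known to bind. The window of CGN lies at chr1:151511137-151511386 on the plus strand, that of TJP1 at chr15:29969050-29969299 on the minus strand and that of TJP3 at chr19:3721487-3721736 on the plus strand.
CGN: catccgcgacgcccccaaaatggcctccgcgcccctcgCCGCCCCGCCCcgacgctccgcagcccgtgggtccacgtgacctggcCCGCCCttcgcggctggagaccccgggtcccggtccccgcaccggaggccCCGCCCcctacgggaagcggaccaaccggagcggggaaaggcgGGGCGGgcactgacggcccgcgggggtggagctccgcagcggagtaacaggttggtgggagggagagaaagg
TJP1: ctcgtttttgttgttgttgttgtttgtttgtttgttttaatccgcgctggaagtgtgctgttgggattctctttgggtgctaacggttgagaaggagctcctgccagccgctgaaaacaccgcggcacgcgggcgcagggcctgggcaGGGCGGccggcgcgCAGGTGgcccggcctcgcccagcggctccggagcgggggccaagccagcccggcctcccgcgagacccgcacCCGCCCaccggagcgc
TJP3: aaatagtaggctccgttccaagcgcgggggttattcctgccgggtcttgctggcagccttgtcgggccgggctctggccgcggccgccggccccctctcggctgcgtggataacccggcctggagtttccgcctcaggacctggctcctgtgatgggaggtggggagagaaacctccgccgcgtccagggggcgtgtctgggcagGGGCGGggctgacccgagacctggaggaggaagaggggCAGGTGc
CGN held 5 matches to the Sp/KLF box and none to CACCTG, TJP1 held 2 and 1, and TJP3 held 1 and 1. RefSeq gave 11 such windows for 6 of the 9 genes: 4 for TJP1, 2 each for TJP3 and OCLN, and 1 each for CGN, LSR and MARVELD2. F11R, PARD3 and PARD6B had no entry. Windows that overlap an annotated exon were searched but are not printed. A second TJP1 window clear of exons, at chr15:29820675-29820924, is not printed either, and it held 0 matches to both boxes at a GC content of 34.8%. The Sp/KLF box was in 8 of the 11 windows and in 42.6% of all 35116 promoter windows of the same length, and CACCTG was in 4 of 11 and in 17.5%. The other 10 windows of the group held 62% to 76% G and C, above the median of 58% over all promoters, and the Sp/KLF box is made of these letters. The grainyhead box AACCGGTT was in 0 of 11 windows and in 0.117% of all. Other boxes were searched too. The E-box CACGTG was in 2 of 11 and in 6.3% of all, in the CGN window and in a TJP3 window that is not printed. The CCAAT box was in 2 of 11 and in 32.0%, and the TEAD box GGAATG in 0 of 11 and in 11.9%. The data do not show which start the cells used, and a match describes letters, not binding.

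The genes lie on 6 chromosomes of GRCh38. CGN (ENSG00000143375, chr1:151510510-151538692, plus strand) and F11R (ENSG00000158769, chr1:160995211-161021348, minus strand) are on chromosome 1, and LSR (ENSG00000105699, chr19:35248330-35267964, plus strand) and TJP3 (ENSG00000105289, chr19:3708109-3750813, plus strand) are on chromosome 19. MARVELD2 (ENSG00000152939, chr5:69415065-69444330) and OCLN (ENSG00000197822, chr5:69492292-69558104) are neighbours on the plus strand of chromosome 5, 47961 bases apart. TJP1 (ENSG00000104067, chr15:29699367-29968865, minus strand), PARD3 (ENSG00000148498, chr10:34109560-34815325, minus strand) and PARD6B (ENSG00000124171, chr20:50731544-50756795, plus strand) stand alone. All 9 genes passed the filter on low counts in both fits. Between 14658319 and 20413839 counts fell on genes in each library, and the member counts ran from 155 to 305 for TJP3, the scarcest, and from 3275 to 6643 for TJP1. All 10 epithelial markers reached 1 CPM (CPM, counts scaled to library size with edgeR's TMM method) in every group, with a summed level of 5383 to 7219 CPM, while the secretory markers were at 0 to 0.52 CPM and MUC5AC was at 0 in all 26 libraries. Of the other lists, at most 2 of 7 fibroblast, 1 of 5 endothelial, 2 of 5 leukocyte and 3 of 4 ciliated markers reached 1 CPM in a group. COL1A1 (12.5 to 43.2 CPM), CDH5 (11.2 to 27.2), ITGAM (1.01 to 8.45) and CAPS (4.43 to 17.7) led these lists, while the leukocyte marker PTPRC was at 0 in 21 libraries and the endothelial marker PECAM1 in 18. The libraries numbered 1 to 3 stood apart from those numbered 4 to 6 within each glucose group: 34.4% of tested genes did not overlap between the sets in WT cells in normal glucose, 49.8% in WT cells in high glucose (3 libraries against 2), 40.9% in CF cells in normal glucose and 46.7% in CF cells in high glucose. The labels do not say what the numbers stand for, so values are given by set where a gene was called in only 1 of them.

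The order of the 9 genes by level could be set only per length, in FPKM as deposited. In WT cells in normal glucose LSR was highest at 92.9 ± 6.0 FPKM (SD, n = 6), followed by F11R at 48.2 ± 3.1, CGN at 25.4 ± 3.6, TJP1 at 24.0 ± 3.5 and OCLN at 19.6 ± 0.45. PARD6B had 13.4 ± 1.2 FPKM, MARVELD2 8.97 ± 0.58, PARD3 4.43 ± 0.44 and TJP3 3.49 ± 0.28. The libraries of CGN and TJP1 overlapped, as did those of TJP1 and OCLN, and the other neighbours in the order did not. The same order was found in the other groups except in CF cells in normal glucose, where OCLN at 21.5 ± 1.1 FPKM and TJP1 at 21.0 ± 1.6 exchanged places with overlapping libraries. The angulin LSR was the most abundant transcript of the group per length and the ZO family scaffold TJP3 the least, in every group.

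**Figure D1:**
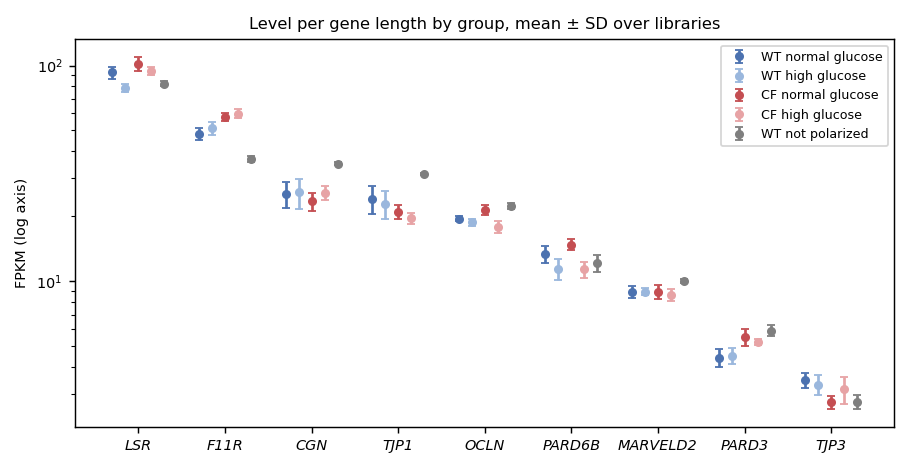
Level of each of the 9 genes per length (FPKM, log axis) in each of the 5 groups, as mean and SD over the libraries of a group. LSR stands highest and TJP3 lowest in all 5 groups.

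MARVELD2 varied least over the 26 libraries, with its highest CPM 1.29 times its lowest, and OCLN followed at 1.37 times. TJP1 varied most, at 1.80 times, followed by CGN at 1.77 and F11R at 1.73. The plot of CPM by library shows the spread of every group and the 2 sets of library numbers.

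**Figure D2:**
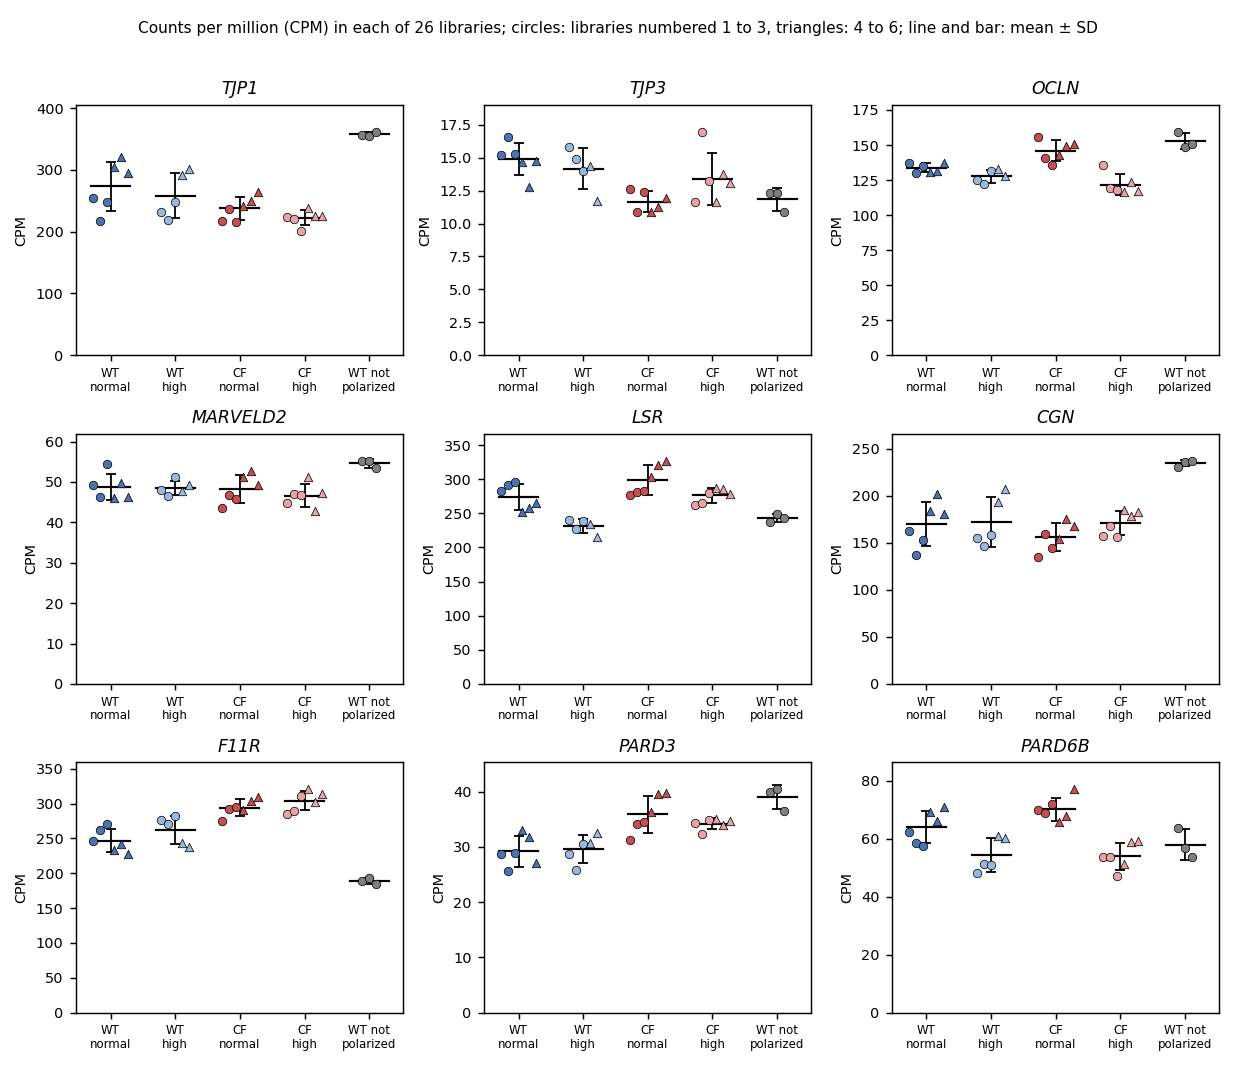
CPM of the 9 genes in each of the 26 libraries by group, with the group mean and SD. Circles are libraries numbered 1 to 3 and triangles those numbered 4 to 6; the not polarized libraries are highest for TJP1 and CGN and lowest for F11R.

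The not polarized WT cells differed from WT cells in normal glucose in 7 of the 9 genes, of which 4 were higher and 3 lower, at an adjusted p under 0.05 by edgeR's quasi-likelihood test with Benjamini-Hochberg adjustment over all genes. In this comparison 50% of 16105 tested genes were called, 24% higher and 26% lower, and the libraries of the groups did not overlap for 46.6% of genes, so a call here was common. The plaque genes CGN and TJP1, the polarity scaffold PARD3 and OCLN were higher, while F11R, TJP3 and LSR were lower. The members' median log2 fold change was 0.15, against -0.02 over all tested genes. Other tested genes within 1 Mb of each called member had a median log2 fold change of the member's sign. It was 0.29 near TJP1, 0.11 near CGN, 0.24 near PARD3 (5 genes) and 0.15 near OCLN. Near TJP3 it was -0.29, near LSR -0.32 and near F11R -0.22. Whether the members moved with their neighbours more than other genes do with theirs was not tested. In bulk RNA, fewer cells of a type and less RNA per cell cannot be told apart.

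Among the scaffolds, TJP1 measured 356, 355 and 361 CPM in the 3 not polarized libraries and from 217 through a median of 275 to 320 CPM in WT cells in normal glucose. All 3 not polarized libraries lay above all 6 others, and the log2 fold change was 0.37 ± 0.10 (SE; edgeR adjusted p = 0.00891). CGN measured 231, 237 and 237 CPM in the not polarized libraries and from 137 through 171 to 202 CPM in the others. The cingulin groups did not overlap either, with a log2 fold change of 0.45 ± 0.10 (edgeR adjusted p = 0.00184). TJP3, the ZO-3 scaffold, went the other way: 12.3, 12.3 and 10.8 CPM in the not polarized libraries against 12.8 through 14.96 to 16.5 CPM. Its groups lay close without overlapping, with a log2 fold change of -0.34 ± 0.10 (edgeR adjusted p = 0.0109), and without not polarized library 3 the adjusted p was 0.0705.

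Among the membrane proteins, F11R had the lowest levels of the series in the not polarized libraries, at 189, 194 and 185 CPM, against 227 through 245 to 270 CPM in WT cells in normal glucose. The groups of this adhesion gene did not overlap, and its log2 fold change was -0.40 ± 0.07 (edgeR adjusted p = 0.000214). OCLN measured 159, 149 and 151 CPM against 130 through 134 to 137 CPM, all 3 libraries above the others, with a log2 fold change of 0.18 ± 0.05 (edgeR adjusted p = 0.0142). Without not polarized library 1, the highest, the adjusted p of OCLN was 0.0874. LSR measured 237, 249 and 242 CPM against 251 through 274 to 296 CPM, a narrow gap with no overlap, and its log2 fold change was -0.19 ± 0.07 (edgeR adjusted p = 0.028). That call was lost when any of the 3 not polarized libraries, WT library 1 or WT library 3 was left out, with adjusted p between 0.0524 and 0.128, and when low-count genes were kept in the test (adjusted p = 0.0751). MARVELD2, the partner that LSR recruits, measured 55.3, 55.1 and 53.4 CPM against 46.1 through 47.8 to 54.5 CPM, and at 0.15 ± 0.07 it was not called (edgeR adjusted p = 0.0862), though without WT library 3, its highest, the adjusted p was 0.0365.

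Of the polarity genes, PARD3 measured 40.0, 40.5 and 36.5 CPM in the not polarized libraries and 25.6 through 28.8 to 33.0 CPM in the others. The groups did not overlap and the log2 fold change was 0.40 ± 0.09 (edgeR adjusted p = 0.0017). PARD6B, its partner in the Par complex, measured 63.7, 56.6 and 53.6 CPM against 57.3 through 64.2 to 70.8 CPM. These groups overlapped, and the log2 fold change of -0.16 ± 0.09 was not called (edgeR adjusted p = 0.139).

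The sets of library numbers bear on this comparison, because the not polarized libraries carry only the numbers 1 to 3, and whether they were made with either set is not stated. In WT cells in normal glucose, libraries 4 to 6 lay between libraries 1 to 3 and the not polarized libraries for TJP1, CGN, TJP3, F11R and LSR, 5 of the 7 called genes. The share of all tested genes with this order was not counted. The 2 sets did not overlap for 34.4% of them, and the not polarized and normal glucose libraries for 46.6% of those tested there. Against libraries 1 to 3 alone, TJP1 was higher by 0.57 and CGN by 0.63 on the log2 scale, and against libraries 4 to 6 alone by 0.19 and 0.29. F11R was lower in both, at -0.46 and -0.33, and PARD3 was higher in both, at 0.49 and 0.32. LSR was lower in both, at -0.26 and -0.11, and so was TJP3, at -0.41 and -0.27. PARD6B depended on the set: its log2 fold change was -0.04 against libraries 1 to 3 (edgeR adjusted p = 0.696) and -0.27 against libraries 4 to 6 (edgeR adjusted p = 0.00116). The 7 genes called in the whole comparison were also called against libraries 4 to 6 alone, a setting chosen after seeing the data, where MARVELD2 (0.18, edgeR adjusted p = 0.0173) and PARD6B were called too. Against libraries 1 to 3, MARVELD2 was at 0.12 (edgeR adjusted p = 0.146). Some summed marker lists moved in the same comparison. The fibroblast list, in which only 1 of 7 markers reached 1 CPM, was at 13.8 to 14.9 CPM in the not polarized libraries against 27.5 to 44.3 CPM. The leukocyte list was at 1.85 to 3.48 against 5.04 to 9.35 CPM, and the ciliated list at 9.79 to 11.6 against 13.1 to 16.7 CPM. The endothelial (12.5 to 14.1 against 13.1 to 16.6 CPM) and epithelial lists (6412 to 6490 against 5643 to 6567 CPM) overlapped. The part of these lists in the result was not tested.

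**Figure D3:**
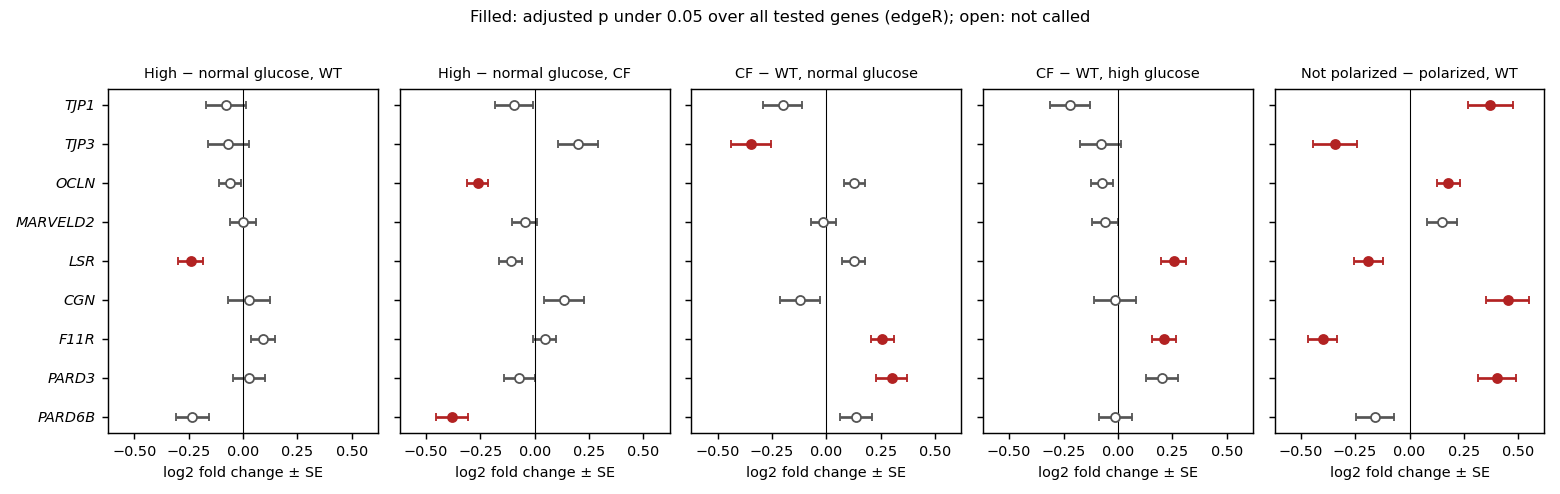
Log2 fold change with its SE for each of the 9 genes in 5 comparisons (high against normal glucose in WT and in CF cells, CF against WT in normal and in high glucose, not polarized against WT in normal glucose). Filled red points passed an adjusted p of 0.05; the not polarized panel holds 7 of them, and the glucose panels hold 1 in WT and 2 in CF cells.

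High glucose in WT cells changed 1 of the 9 genes, LSR, which fell, where 2.96% of 16338 tested genes were called and the libraries of the groups did not overlap for 4.1%. LSR measured 240, 227, 239, 235 and 215 CPM in high glucose and from 251 through 274 to 296 CPM in normal glucose. All 5 libraries in high glucose lay below all 6 in normal glucose, and the log2 fold change was -0.24 ± 0.06 (edgeR adjusted p = 0.0145). Within libraries 1 to 3 it was -0.29 (edgeR adjusted p = 0.00409) and within 4 to 6 it was -0.18 (edgeR adjusted p = 0.0935). The call was lost without high glucose library 2 (adjusted p = 0.052) or 5 (adjusted p = 0.0639) and when low-count genes were kept in the test (adjusted p = 0.0535).

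PARD6B measured 48.1, 51.4, 50.8, 61.0 and 60.1 CPM in WT cells in high glucose and 57.3 through 64.2 to 70.8 CPM in normal glucose. Libraries 4 and 5 in high glucose overlapped with the normal glucose range, and the log2 fold change of -0.23 ± 0.08 was not called (edgeR adjusted p = 0.105). With a term for the set of library numbers, the same gene was called at -0.22 (edgeR adjusted p = 0.0162). The log2 fold changes of the other 7 genes lay between -0.08 for TJP1 and 0.09 for F11R. For CGN, for example, WT cells had 170 ± 23 CPM in normal glucose (n = 6) and 172 ± 27 CPM in high glucose (SD, n = 5).

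High glucose in CF cells lowered 2 of the 9 genes, OCLN and PARD6B, where 8.41% of all tested genes were called, 4.27% higher and 4.14% lower, and 4.68% did not overlap between the groups. OCLN measured 136 through 146 to 156 CPM in normal glucose and 117 through 119 to 136 CPM in high glucose. The groups did not overlap, although the highest high glucose library (replicate 1, 135.6 CPM) came within 1 CPM of the lowest normal glucose library (136.0 CPM). The log2 fold change of occludin was -0.26 ± 0.05 (edgeR adjusted p = 0.000851), and it was -0.22 in libraries 1 to 3 (edgeR adjusted p = 0.0519) and -0.31 in libraries 4 to 6 (edgeR adjusted p = 0.000107). Reads of the OCLN pseudogene OCLNP1 amounted to 0.434% of those of OCLN, and reads shared between near-identical copies could have been split by the authors' counting.

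PARD6B measured 65.7 through 69.3 to 77.0 CPM in CF cells in normal glucose and 47.1 through 53.6 to 59.3 CPM in high glucose, with no overlap. Its log2 fold change of -0.38 ± 0.07 (edgeR adjusted p = 0.00128) was the furthest from 0 of the 9 genes in either glucose comparison. PARD6B fell in both sets of libraries, by 0.45 on the log2 scale in 1 to 3 (edgeR adjusted p = 0.000261) and by 0.32 in 4 to 6 (edgeR adjusted p = 0.00156), and it was called with every library left out in turn. PARD3, its scaffold partner, had a log2 fold change of -0.07 (35.9 ± 3.3 against 34.2 ± 1.0 CPM, SD, n = 6 each) and was not called. LSR, which fell in WT cells, measured 298 ± 22 CPM in normal and 276 ± 10 CPM in high glucose in CF cells, a log2 fold change of -0.11 ± 0.05 that was not called (edgeR adjusted p = 0.221). By set it was -0.06 in libraries 1 to 3 (edgeR adjusted p = 0.55) and -0.16 in libraries 4 to 6, where it was called (edgeR adjusted p = 0.0468). TJP3 leaned the other way, at 11.7 ± 0.77 against 13.4 ± 1.95 CPM and 0.20 ± 0.09 on the log2 scale (edgeR adjusted p = 0.209), with 1 library at 16.95 CPM.

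Whether the glucose response differed between the lines was tested by an interaction term, and 0 of the 9 genes were called by edgeR, where 0.0367% of all genes (6 genes) were called and 1109 genes had an unadjusted p under 0.05. DESeq2 called 67 genes for this term and also 0 of the 9. OCLN had the lowest p of the 9, with a difference of -0.20 ± 0.07 (edgeR unadjusted p = 0.00779, adjusted p = 0.447). LSR differed by 0.13 ± 0.08 (edgeR adjusted p = 0.845) and PARD6B by -0.15 ± 0.11 (edgeR adjusted p = 0.918). So the fall of LSR in WT cells and those of OCLN and PARD6B in CF cells were not shown to differ between the lines. In libraries 4 to 6 alone, OCLN was called for the difference at -0.30 (edgeR adjusted p = 0.0469), and in libraries 1 to 3 it was at -0.14 (edgeR adjusted p = 0.739).

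CF cells differed from WT cells in 3 of the 9 genes in normal glucose, where 24.4% of all genes were called and 13.1% did not overlap, and in 2 of 9 in high glucose, where 19.9% were called and 14.1% did not overlap. The share of members called was thus near the background in both. F11R was higher in CF cells at both glucose levels, PARD3 was higher and TJP3 lower in normal glucose (13% of all genes were lower there), and LSR was higher in high glucose. The 2 comparisons use separate libraries, and the values of each are given side by side below. Summed markers of ciliated cells were 12.5 to 16.7 CPM in the WT and 18.9 to 26.7 CPM in the CF libraries of both glucose levels, and the epithelial markers 5383 to 6567 against 6166 to 7219 CPM. The endothelial list was at 12.2 to 16.6 CPM in WT and 19.03 to 27.8 CPM in CF libraries, and the fibroblast list at 27.5 to 44.3 against 16.3 to 26.6 CPM in normal glucose and at 27.6 to 42.2 against 19.6 to 31.1 CPM in high glucose. Their part in the results was not tested.

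At the normal glucose level F11R measured 227 through 245 to 270 CPM in WT and 276 through 294 to 309 CPM in CF cells. At the high level it measured 277, 270, 283, 244 and 238 CPM in WT cells and 286 through 307 to 321 CPM in CF cells. Every CF library lay above every WT library at the same glucose level. The log2 fold change was 0.26 ± 0.05 in normal glucose (edgeR adjusted p = 0.000586) and 0.21 ± 0.06 in high glucose (edgeR adjusted p = 0.00673). By set, the values of this JAM gene were 0.16 in libraries 1 to 3 (edgeR adjusted p = 0.0608) and 0.36 in 4 to 6 (edgeR adjusted p = 1.58e-06) in normal glucose, and 0.09 (edgeR adjusted p = 0.31) and 0.35 (edgeR adjusted p = 2.18e-05) in high glucose. On chromosome 1, 38 other tested genes lie within 1 Mb of F11R. Of these neighbours 27 had a positive log2 fold change in normal glucose (median 0.12, 7 called higher and 1 lower), and 26 in high glucose (median 0.13, 9 higher and 0 lower). The median over all tested genes was 0.0040 in normal and 0.0074 in high glucose. Near the other genes called between the lines, the median was -0.0015 for PARD3 and -0.04 for TJP3 in normal glucose. For LSR in high glucose it was 0.03. Near the genes called for glucose it was -0.05 for LSR in WT cells, and 0.02 for OCLN and 0.04 for PARD6B in CF cells. For PARD3, OCLN and PARD6B the median had the opposite sign to the member. Whether F11R moved with its neighbours more than other genes do with theirs was not tested.

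PARD3 measured 25.6 through 28.8 to 33.0 CPM in WT and 31.3 through 35.4 to 39.9 CPM in CF cells in normal glucose, with overlap in the range from 31.3 to 33.0 CPM. The log2 fold change was 0.30 ± 0.07 (edgeR adjusted p = 0.002), and 0.28 and 0.33 in the 2 sets (edgeR adjusted p = 0.0252 and 0.00169). In high glucose it was 0.20 ± 0.07 and not called (edgeR adjusted p = 0.0543), with 0.25 in libraries 1 to 3 (edgeR adjusted p = 0.0477) and 0.11 in libraries 4 to 6 (edgeR adjusted p = 0.42). PARD3 in high glucose was called in 5 of 9 alternative settings, DESeq2 (adjusted p = 0.0373) and a term for the set (adjusted p = 0.0187) among them, and in 1 of 11 fits with a library left out (without WT library 5, adjusted p = 0.0392). TJP3 measured 12.8 through 14.96 to 16.5 CPM in WT and 10.9 through 11.6 to 12.6 CPM in CF cells in normal glucose, without overlap. The log2 fold change of this scaffold was -0.35 ± 0.09 (edgeR adjusted p = 0.00572), and -0.38 and -0.31 in the 2 sets, both called. In high glucose TJP3 had 14.2 ± 1.5 CPM in WT cells (n = 5) and 13.4 ± 1.95 CPM in CF cells (SD, n = 6), a log2 fold change of -0.08 that was not called.

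LSR measured 262 through 279 to 288 CPM in CF cells in high glucose, above all 5 WT libraries (215 to 240 CPM). Its log2 fold change there was 0.26 ± 0.06 (edgeR adjusted p = 0.00116), and it was called in each set, at 0.19 and 0.31. In normal glucose the sets disagreed for this angulin: -0.04 in libraries 1 to 3 (edgeR adjusted p = 0.669) and 0.30 in libraries 4 to 6 (edgeR adjusted p = 5.11e-05), with 0.13 ± 0.05 over both (edgeR adjusted p = 0.0882). In libraries 4 to 6 TJP1 went the other way from LSR. It was lower in CF cells there, at -0.28 in normal glucose (edgeR adjusted p = 0.000118) and -0.39 in high glucose (edgeR adjusted p = 4.07e-06). In libraries 1 to 3 the ZO-1 gene had -0.10 (edgeR adjusted p = 0.375) and -0.11 (edgeR adjusted p = 0.293), and over all libraries -0.20 and -0.22, neither called (edgeR adjusted p = 0.103 and 0.0992). With a term for the set, TJP1 was called at both glucose levels (edgeR adjusted p = 0.00426 and 0.00126). OCLN was at 0.13 ± 0.05 in normal glucose and not called (edgeR adjusted p = 0.0513), but 6 of 9 alternative settings called it, DESeq2 (adjusted p = 0.0138), RLE factors (adjusted p = 0.0405) and the set term (adjusted p = 0.0267) among them, as did 5 of 12 fits with a library left out. By set, OCLN had 0.11 (edgeR adjusted p = 0.273) and 0.15 (edgeR adjusted p = 0.0436). PARD6B was called in libraries 1 to 3 in normal glucose, at 0.25 (edgeR adjusted p = 0.0114), and not in 4 to 6, at 0.03 (edgeR adjusted p = 0.796). CGN was called in 4 to 6, at -0.19 (edgeR adjusted p = 0.0161), and not in 1 to 3, at -0.04 (edgeR adjusted p = 0.781). MARVELD2 had 48.7 ± 3.2 CPM in WT and 48.2 ± 3.5 CPM in CF cells (SD, n = 6 each), a log2 fold change of -0.01 ± 0.06.

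The 2 sets of libraries differed in TJP1 in every glucose group. TJP1 was higher in libraries 4 to 6 without overlap in all 4 glucose groups, by 1.28 times in both WT groups, 1.13 times in CF cells in normal glucose and 1.07 times in CF cells in high glucose. In that last group the sets nearly touched, at 224.2 CPM for the highest of libraries 1 to 3 and 224.6 CPM for the lowest of 4 to 6. CGN was higher without overlap in 3 of the 4 groups, by 1.25, 1.31 and 1.14 times, and by 1.13 times with overlap in CF cells in normal glucose. F11R went the other way in WT cells, at 0.902 times in normal and 0.870 times in high glucose, and overlapped in CF cells. PARD6B was higher without overlap in both WT groups, by 1.16 and 1.21 times. TJP3 was lower in libraries 4 to 6 of WT cells in normal glucose, at 0.898 times, and overlapped in the other 3 groups. LSR was lower in libraries 4 to 6 of WT cells in normal glucose, at 0.889 times, and higher in those of CF cells in normal glucose, at 1.13 times. PARD3 was higher without overlap in WT cells in high glucose (1.11 times) and in CF cells in normal glucose (1.16 times), and MARVELD2 in CF cells in normal glucose (1.13 times). Over all tested genes, 34.4% to 49.8% did not overlap between the sets of a group, so a lack of overlap was common.

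**Figure D4:**
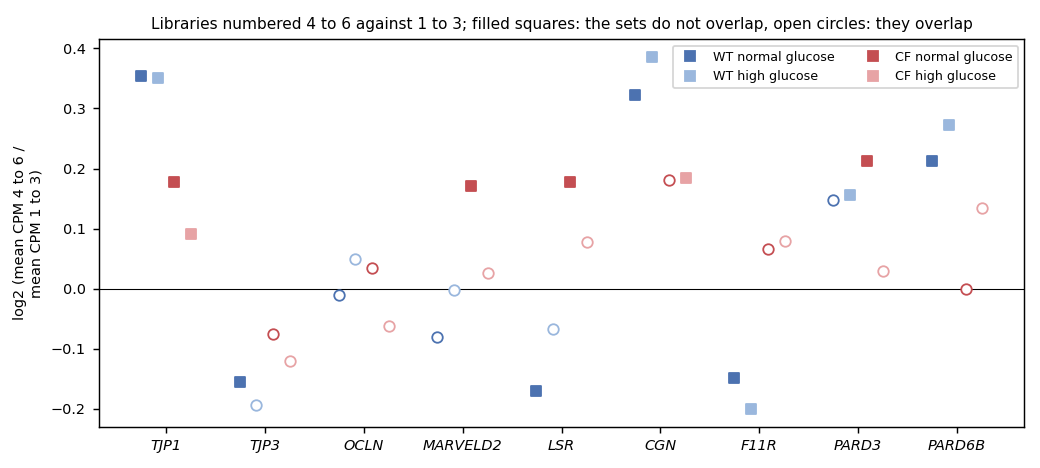
Log2 ratio of the mean CPM of libraries 4 to 6 over that of libraries 1 to 3, for each of the 9 genes in the 4 glucose groups. Filled squares mark genes whose sets did not overlap and open circles those that overlapped; TJP1 has a filled square above 0 in all 4 groups.

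Across the 26 libraries, profiles were compared by the root mean square difference of centred log2 CPM, a description that all libraries and their sets share in. The closest pairs were TJP1 and CGN (0.121 log2 units) and OCLN and MARVELD2 (0.128). The most distant pair was TJP1 and F11R (0.452). Among 10709 protein-coding genes, the nearest profile to TJP1 was that of SLC9A8 at 0.0572, where the median gene was at 0.319. The nearest to OCLN was TOPBP1 (0.0649), to F11R B4GALT3 (0.0685), to MARVELD2 CANX (0.0741) and to PARD3 ETV3 (0.0783). CGN was nearest to RNF216 (0.0827), LSR to MAP2K7 (0.0835), PARD6B to YTHDC1 (0.0879) and TJP3 to PSMB4 (0.128). B4GALT3 lies on chromosome 1, 149961 bases from F11R.

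Related genes of the junction and of polarity were counted over 7 lists with 70 genes. Of the 60 tested, 3 were called for glucose in WT cells (5%), 9 for glucose in CF cells (15%), 17 for the lines in normal glucose (28.3%), 18 in high glucose (30%) and 0 for the difference of the glucose response. Of 59 tested in the not polarized comparison, 26 were called (44.1%). The background shares of all genes for these comparisons were given above.

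Among the 11 genes listed with the scaffolds, not all of the same protein families, 3 fell with high glucose in CF cells. There 4.14% of all tested genes were called lower. The 3 that fell were AFDN (afadin, an actin-binding scaffold of adherens junctions, from 719 ± 76 to 553 ± 69 CPM), PATJ and YBX3, at log2 fold changes of -0.38, -0.19 and -0.19. None of the 11 was called for glucose in WT cells, where the same genes had -0.24, -0.04 and -0.15. For the difference of the glucose response 0 of the 11 were called. CGNL1 (paracingulin, the relative of CGN) was higher in not polarized cells, at 5.03 ± 1.1 CPM (n = 3) against 1.74 ± 0.49 CPM (n = 6), a log2 fold change of 1.51. It was also higher in CF than in WT cells, by 1.01 in normal and 0.65 in high glucose. MAGI1 rose (0.66) and YBX3 (-0.63) and SYMPK (-0.19) fell in the not polarized comparison. MAGI2, a MAGUK scaffold at or under about 1 CPM, was lower in CF cells, with log2 fold changes of -1.67 and -1.95.

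Of the 7 tested relatives of the membrane proteins, ILDR1 (angulin-2, a relative of LSR) rose with high glucose in CF cells, from 2.87 ± 0.54 to 4.47 ± 0.36 CPM (log2 fold change 0.63). MARVELD1 rose as well, from 46.2 ± 4.4 to 56.7 ± 2.6 CPM. In not polarized cells CRB3 (Crumbs, an apical polarity determinant) fell by 0.62 and CXADR (a cell adhesion protein of the junction) by 0.56 on the log2 scale, while BVES rose by 0.47. MARVELD1 was lower in CF cells in normal glucose (-0.31) and BVES in high glucose (-0.30).

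Among 7 tested partners of the Par complex, the atypical kinase PRKCZ fell with high glucose in CF cells, from 44.2 ± 3.5 to 36.7 ± 2.1 CPM (log2 fold change -0.27). PRKCZ and PARD6G were higher in CF than in WT cells at both glucose levels, PARD6G by 0.56 and 0.80. In not polarized cells the kinase PRKCI was higher (0.24) and PARD6G lower (-0.76). Of the 5 tested genes of the Crumbs complex, MPP5 (PALS1) was lower in CF cells by the same -0.31 at both glucose levels, and LIN7B fell in not polarized cells (-0.65) beside CRB3. PATJ, counted among the scaffolds too, fell with glucose in CF cells (-0.19). Of the 9 genes of the Scribble complex and basolateral kinases, DLG1 (0.45), MARK2 and MARK3 were higher in not polarized cells. MARK2 was lower in CF cells at both glucose levels (-0.41 and -0.36), and ERBIN fell with glucose in CF cells (-0.20).

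Among the 11 regulators of junctional GTPases, AMOTL2 (an angiomotin relative) was the gene that fell with glucose in both lines, by 0.28 in WT and 0.25 in CF cells on the log2 scale. RAB3B, a vesicle GTPase, rose with glucose in WT cells, from 68.6 ± 7.0 to 91.1 ± 5.5 CPM (0.41), and was lower in CF than in WT cells (-0.32 and -0.49). AMOTL1 was higher in CF cells (0.63 and 0.53). In not polarized cells 5 of the 11 were higher, led by AMOT (0.36), and ROCK1 was lower (-0.20).

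Of 15 transcription factors known to control epithelial junction genes, 7 of the 11 tested were higher in not polarized cells and 0 lower, where 24% and 26% of all genes were. GRHL3, a grainyhead activator, had 21.9 ± 0.99 CPM (n = 3) against 8.98 ± 1.3 CPM (n = 6), and KLF4 157 ± 4.5 against 82.2 ± 8.7 CPM. SNAI2 (SLUG), a repressor of epithelial genes, had 4.43 ± 0.74 against 0.941 ± 0.27 CPM, a log2 fold change of 2.20, so factors with opposite known roles rose in the same libraries. ELF3 fell with glucose in WT cells, from 167 ± 8.8 to 134 ± 9.3 CPM (-0.31), and GRHL3 in CF cells (-0.43). In CF cells EHF (1.07 in normal and 0.81 in high glucose), GRHL1 (0.70 and 0.50) and KLF5 (0.43 and 0.50) were higher than in WT cells. ZEB2 was higher too (2.41 and 1.37), at a level of at most 0.63 CPM on average in any glucose group, and KLF4 was lower (-0.21 and -0.31). OVOL1 was lower in CF cells in normal glucose (-0.30).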

How the data were processed

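Poly-T captured RNA was sequenced in 26 libraries, and the submitters' processing notes name HISAT2 and the build hg38. The authors deposited raw counts per gene and FPKM values. The FPKM equalled counts divided by gene length and total counts, times a further factor per library of 0.945 to 1.067. Sources used here do not give the counter, its strand setting or the aligner's version, so reads of overlapping genes may mix. Genes that overlap a member held at most 1.075% of its counts. All 58735 genes matched GENCODE 29 by identifier and position, and 35380 had a read.

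The counts were tested with edgeR 4.0.16 in R 4.3.3, using TMM factors, its expression filter by group (at least 10 counts, total of at least 15) and robust quasi-likelihood fits. P-values were adjusted by Benjamini-Hochberg over all tested genes, and a gene was called at an adjusted p under 0.05. The 23 glucose libraries entered 1 fit (16338 genes, 4 means, 19 residual degrees of freedom). Another with 7 degrees of freedom took the 9 WT libraries of the not polarized comparison (16105 genes). CPM are counts over TMM-scaled totals, and the error of a log2 fold change is its SE. For edgeR this SE was derived, as the absolute log2 fold change over the square root of the test's F statistic. FPKM served only to compare levels between genes. The pipeline was tested on simulated data.

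Alternatives were DESeq2 1.42.0, RLE factors, no filter, a filter that asked for 1 CPM in 5 libraries (3 for the not polarized fit), only the 2 groups compared, a block for the library number, a term for the set of numbers, each set alone and each library left out. Equal library numbers were not treated as pairs, as not every same-numbered pair had residuals correlated above 0.1. For glucose, 5 of 6 pairs in CF cells (mean r 0.193) and 4 of 5 in WT cells (0.163) passed 0.1. Between the lines, 3 of 6 pairs in normal glucose (0.105) and 4 of 5 in high glucose (0.164) did. In the not polarized comparison 0 of 3 pairs did (-0.00389). These were deviations from the mean of a whole group, so in the glucose groups they also hold the difference between the sets of library numbers. The correlations therefore cannot tell pairs from sets, and the main fits held a term for neither. The 9 members are always named. Of each list, the called gene furthest from 0 in each direction is named by rule, and for likeness the nearest protein-coding gene with a mean CPM of 5 or more. Other list genes named (PATJ as a scaffold, YBX3 with glucose and MARVELD1 with glucose, MAGI1, SYMPK, CXADR, PRKCZ between lines, MARK3, EHF, GRHL1, KLF5, and GRHL3 and KLF4 outside the comparisons where the rule took them) were chosen after their values were seen. The members and lists were chosen with earlier results of these data known.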

Additional observations from a re-analysis of the deposited data

Results flagged for a closer look

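In CF cells in high glucose, OCLN had 1 library (replicate 1, 135.612 CPM) apart from the other 5, which lay between 116.663 and 123.553 CPM. Its gap to the nearest library was 0.636 of the whole range, above Dixon's 95% critical value of 0.625 for 6 libraries. Of 36 sets of a gene and a group with 4 to 10 libraries, this was the 1 flagged, and chance flags about 1 in 20. OCLN remained called for glucose in CF cells with each library left out in turn.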

How the results depend on the processing

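Of the 54 results for a gene in a comparison, 15 were called, and no called result changed direction in any setting. Counts of called genes and members moved as follows. For glucose in WT cells (484 genes, 1 member), DESeq2 called 809 genes, no filter 319 and 0 members, a term for the set of numbers 1418 and 2, and libraries 4 to 6 alone 823 and 0. For glucose in CF cells (1374 genes, 2 members), no filter called 891 genes, the set term 2812, libraries 4 to 6 alone 2330, and libraries 1 to 3 alone 1 member. For the difference of the glucose response (6 genes, 0 members), DESeq2 called 67 genes, the set term 146, libraries 1 to 3 alone 1, and libraries 4 to 6 alone 387 and 1 member. For CF against WT cells in normal glucose (3979 genes, 3 members), DESeq2 called 5 members, the set term 6 and libraries 4 to 6 alone 7. In high glucose (3253 genes, 2 members) the set term called 4973 genes and 4 members. With the replicate block, which treats equal library numbers as pairs although the labels do not call them so, 1092 genes and 2 members were called for glucose in WT cells, 2561 and 2 in CF cells, 73 and 0 for their difference, 5423 and 5 for the lines in normal glucose, 4591 and 4 in high glucose, and 8885 and 7 for the not polarized comparison (8047 and 7 without it). The cause of these shifts was not tested.

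With each library left out in turn, genes called ranged from 281 to 465 for glucose in WT cells (members 0 to 1, and 281 without high glucose library 3, 309 without normal glucose library 6), 1065 to 1597 in CF cells (members 2 to 2), 0 to 19 for their difference (members 0 to 0), 3629 to 4023 for the lines in normal glucose (members 3 to 5), 2856 to 3120 in high glucose (members 2 to 3), and 6666 to 8406 for the not polarized comparison (members 5 to 7).

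Signs reversed in 40 settings of 12 results, none of them called. For glucose in WT cells, MARVELD2 had a log2 fold change of -0.00114 with DESeq2, -0.00143 with RLE factors, -0.000134 with no filter, -0.00249 with the replicate block, -0.00179 with the 2 groups alone and -0.0361 in libraries 1 to 3, and ranged from -0.0135 to 0.0362 with libraries left out. The same leave-one-out ranges were -0.0461 to 0.0885 for CGN, -0.104 to 0.00123 for TJP3 and -0.00331 to 0.0783 for PARD3. For glucose in CF cells, libraries 1 to 3 alone gave 0.0219 for MARVELD2 and 0.0172 for PARD3. For the difference, MARVELD2 had 0.0579 in libraries 1 to 3 and TJP1 ranged from -0.0859 to 0.0364 with libraries left out. For the lines in normal glucose, LSR had -0.0407 in libraries 1 to 3, and MARVELD2 had 0.108 in libraries 4 to 6 and ranged from -0.0333 to 0.0277. In high glucose, CGN had 0.0620 in libraries 1 to 3 and ranged from -0.0617 to 0.0672, and PARD6B had 0.0364 and ranged from -0.0509 to 0.0369. TJP3 had the fewest counts of the members, 155 to 305 a library.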
